A study of Mus musculus with 24 samples.

Results

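The genes described here mark excitatory neurons of the cerebral cortex. They are the 9 rows of the deposited gene count tables named Slc17a7, Camk2a, Neurod6, Cux2, Rorb, Tbr1, Bcl11b, Etv1 and Fezf2, of 54532 genes in all. They were taken by name, with no threshold on a measured value, and the list was drawn up with earlier results of these data known. Slc17a7, Camk2a and Neurod6 were treated as pan-excitatory genes, Cux2 and Rorb as upper layer genes, and Tbr1, Bcl11b, Etv1 and Fezf2 as deep layer genes.

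Polyadenylated RNA was sequenced in 24 libraries from C57BL/6J mice with a mutation of Polr3a or the wild type gene. Polr3a encodes the catalytic subunit of RNA polymerase III. All mice, wild types included, received tamoxifen on postnatal day 28 (P28), and tissue was taken on P42, 14 days later, or on P75, 47 days later. There were 6 groups of 4 libraries: mutant and wild type cerebrum at P42, mutant and wild type cerebellum at P42, and mutant and wild type cerebrum at P75. Both P42 cerebrum groups held 2 males and 2 females, the cerebellum groups held 2 males and 2 females (mutant) or 3 males and 1 female (wild type), and every P75 library was male. The labels name neither the Polr3a allele nor the Cre driver, so which cells carried the mutation is not given in the sources used here. They also do not say that each library was a separate animal, and p-values below measure the spread between libraries, which may be technical. Each P42 group held both sexes, so its libraries came from more than a single animal.

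Library totals ranged from 13832721 to 23175864 counts. Polr3a itself was at 32.1 to 40.6 counts per 1000000 counts (CPM) in P42 mutant cerebrum and 34.8 to 42.8 in its wild types, and at 30.6 to 34.2 in P75 mutants and 29.4 to 35.6 in their wild types. A gene total does not read the mutated bases, so these levels do not check the genotype labels. CPM of the 9 genes below use totals scaled by TMM, a normalization between libraries.

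The cortex is built in layers. Excitatory neurons of the upper layers mostly send axons to other cortical areas, while those of the deep layers also send axons to the thalamus, brainstem and spinal cord. Their identity is set by transcription factors, some of which repress each other. Glutamate, the transmitter of these cells, is loaded into synaptic vesicles by the transporter that Slc17a7 encodes.

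In mm10 (GRCm38) coordinates from the count tables, the pan-excitatory genes were Slc17a7 (ENSMUSG00000070570, chr7:45163949-45176142, + strand), Camk2a (ENSMUSG00000024617) and Neurod6 (ENSMUSG00000037984, chr6:55677822-55681263, −). The upper layer genes were Cux2 (ENSMUSG00000042589, chr5:121856366-122050102, −) and Rorb (ENSMUSG00000036192, chr19:18930605-19111196, −). The deep layer genes were Tbr1 (ENSMUSG00000035033, chr2:61802930-61814114, +), Bcl11b (ENSMUSG00000048251, chr12:107910403-108003602, −), Etv1 (ENSMUSG00000004151, chr12:38779380-38870484, +) and Fezf2 (ENSMUSG00000021743, chr14:12342094-12348189, −). Other genes of the tables overlap the spans of Slc17a7, Camk2a and Cux2. Their counts reached at most 0.619% of the member's own count in any cerebrum library.

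Tbr1 and Rorb marked the ends of what was seen at P75: Tbr1 had the lowest fold change of the 9 genes and Rorb the one nearest to no change. The 250 bases before their RefSeq start sites (build GRCm38.p6, first listed start of each gene, written 5′ to 3′ on the gene's strand) are printed here with the homeodomain core motif TAATTA in capitals. They cover chr2:61804203-61804452 on the + strand for Tbr1 and chr19:19111197-19111446 on the − strand for Rorb.
Tbr1: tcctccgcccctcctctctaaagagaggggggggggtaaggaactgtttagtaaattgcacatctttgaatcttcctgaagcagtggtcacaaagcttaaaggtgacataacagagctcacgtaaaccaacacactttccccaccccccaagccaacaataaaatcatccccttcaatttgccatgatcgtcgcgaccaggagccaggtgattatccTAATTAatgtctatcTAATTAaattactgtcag
Rorb: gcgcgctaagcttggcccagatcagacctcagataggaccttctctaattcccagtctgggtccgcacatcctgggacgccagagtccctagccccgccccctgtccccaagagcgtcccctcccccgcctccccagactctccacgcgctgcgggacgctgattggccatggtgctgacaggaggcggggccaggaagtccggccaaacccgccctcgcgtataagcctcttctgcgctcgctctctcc
The Tbr1 window lies within the gene span of the count tables, in an exon of a noncoding Tbr1 transcript of the GENCODE annotation. The Rorb window ends next to the annotated gene.

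TAATTA, which reads the same on both strands, began at positions -33 and -18 from the Tbr1 start and was absent from the Rorb window. It was searched after the Tbr1 sequence had been seen. Promoters of 8 of the 9 genes were searched, with 11 RefSeq start sites, and Camk2a was not among them. TAATTA occurred at 1 of the 8 genes, against 4.84% of 32851 promoters in this window. The genes are counted over all their start sites, while the percentages count single promoters, so the 2 are not in like units. The NEUROD-type E-box CAGATG, searched on both strands (reverse complement CATCTG), occurred at 2 genes, Cux2 and Etv1, and in 14.4% of all promoters. In both genes the first listed start had no match. The T-box half-site AGGTGTGA (reverse complement TCACACCT) occurred at 0 members and in 1.12% of all promoters. Such matches describe letters only.

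Levels of different genes were compared as CPM divided by the length of the gene model in kilobases. In wild type P42 cerebrum, Camk2a was highest at 339 ± 66.2 (SD, n = 4), followed by Slc17a7 at 178 ± 43.0. Neurod6 stood at 24.8 ± 7.75, Tbr1 at 21.7 ± 5.60, Bcl11b at 18.6 ± 4.04, Cux2 at 10.5 ± 2.85, Fezf2 at 8.55 ± 3.54 and Etv1 at 7.43 ± 0.455, and neighbours among these 6 overlapped in range. Rorb was lowest at 4.31 ± 1.13. In wild type P75 cerebrum the order differed in 1 step, with Fezf2 at 9.61 ± 0.389 above Cux2 at 8.44 ± 0.178. There, only the neighbouring pairs Tbr1 and Bcl11b, and Cux2 and Etv1, overlapped.

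**Figure D1:**
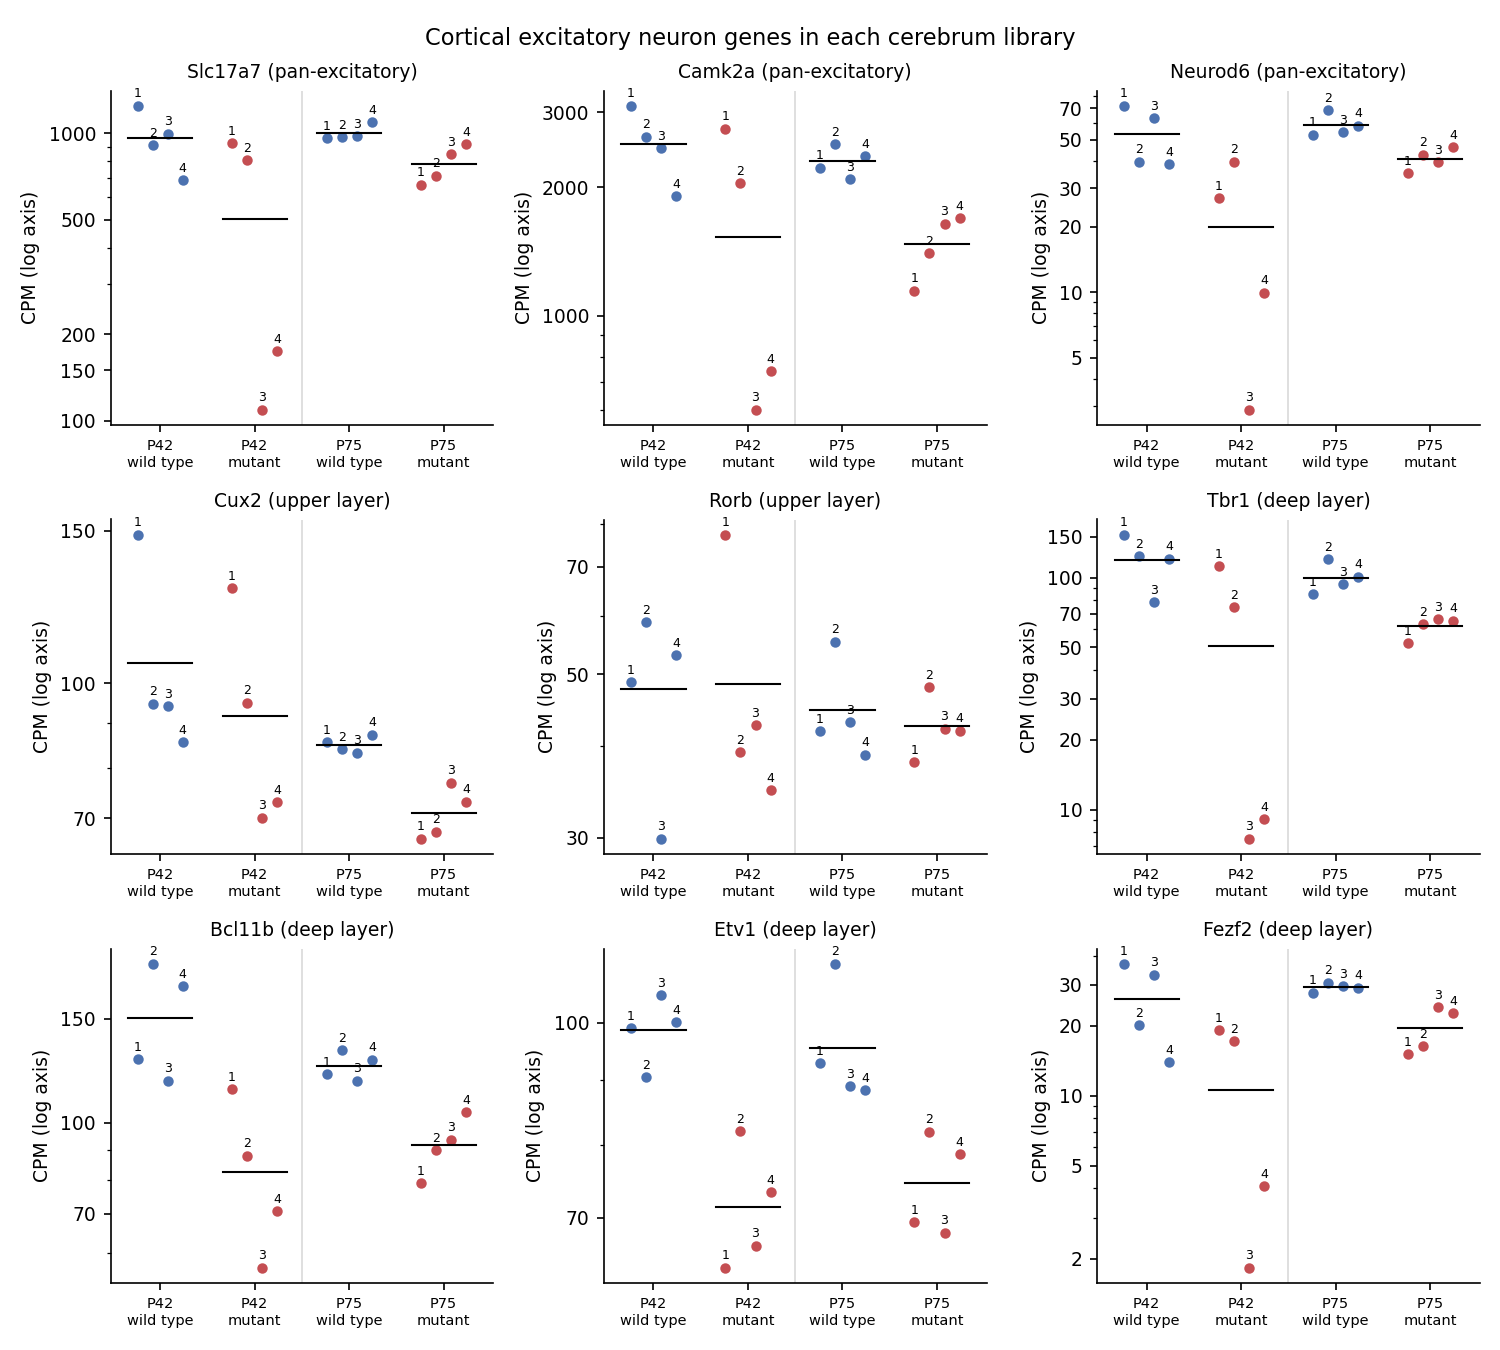
CPM (log axis, TMM-scaled) of each of the 9 genes in the 16 cerebrum libraries; blue points are wild type, red points mutant, numbers are replicates, and the black line is the mean of 4. P42 mutants 3 and 4 lie far below the other libraries for Slc17a7, Camk2a, Neurod6, Tbr1 and Fezf2, and at P75 the 4 mutants lie below the 4 wild types for every gene but Rorb.

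At P75, 8 of the 9 genes took a smaller share of the counts in mutant cerebrum. Tbr1, Camk2a, Fezf2, Neurod6, Bcl11b, Etv1, Slc17a7 and Cux2 fell, by 0.26 to 0.70 on the log2 scale, and for each of the 8 all 4 mutants were below all 4 wild types. The pan-excitatory genes (3 of 3) and the deep layer genes (4 of 4) all passed the test, and of the upper layer genes Cux2 did and Rorb did not (1 of 2). Over all 17523 genes tested with edgeR's quasi-likelihood test, 14.3% were called (Benjamini-Hochberg adjusted p, threshold 0.05), and 6.62% were called lower. Groups did not overlap, with mutants lower, for 9.87% of all genes. The median log2 fold change was -0.51 for the pan-excitatory, -0.17 for the upper layer and -0.51 for the deep layer genes, beside 0.0031 for all genes. In bulk tissue, fewer cells of a type and less RNA per cell cannot be told apart.

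Among the pan-excitatory genes, Slc17a7, the vesicular glutamate transporter of most cortical excitatory neurons, was at 963, 969, 980 and 1093 CPM in the P75 wild types. It was at 662, 712, 847 and 918 CPM in the mutants. The mutant range ended below the wild type range, with a log2 fold change of -0.35 ± 0.097 (SE, edgeR adjusted p = 0.0267). Camk2a (chr18:60925618-60988152, + strand) encodes the alpha subunit of the calcium/calmodulin-dependent kinase II, a major protein of the excitatory synapse. Its wild type values were 2226, 2524, 2091 and 2366 CPM, and its mutant values were 1145, 1402, 1643 and 1696 CPM. Camk2a fell by 0.65 ± 0.11 on the log2 scale (edgeR adjusted p = 0.00153), so that the highest mutant was well under the lowest wild type. Neurod6, a basic helix-loop-helix factor of excitatory neurons, was at 52.8, 68.6, 54.1 and 58.2 CPM in wild types and at 35.2, 42.8, 39.4 and 46.3 CPM in mutants. It fell by 0.51 ± 0.10 (edgeR adjusted p = 0.00466).

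Cux2, a homeodomain factor of upper layer neurons, was tightly grouped in the P75 wild types, at 85.6, 84.0, 83.2 and 87.3 CPM. The mutants were at 66.3, 67.5, 76.9 and 73.1 CPM. This was the smallest change among the called genes, -0.26 ± 0.070 (edgeR adjusted p = 0.0239). Rorb, an orphan nuclear receptor best known from layer IV, was at 41.8, 55.4, 43.0 and 38.9 CPM in wild types and at 38.0, 48.0, 42.2 and 41.9 CPM in mutants. The Rorb groups overlapped, and the log2 difference was -0.073 ± 0.11 (edgeR adjusted p = 0.713).

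Of the deep layer genes, Tbr1, a T-box factor that specifies layer VI corticothalamic neurons, was at 84.9, 120, 93.6 and 101 CPM in the P75 wild types and at 52.2, 63.1, 66.3 and 65.2 CPM in the mutants. Tbr1 fell by 0.70 ± 0.11, or 1.62-fold (edgeR adjusted p = 0.000701). Fezf2, the zinc finger factor that specifies layer V subcerebral projection neurons, was at 27.8, 30.6, 29.6 and 29.1 CPM in wild types. Its mutants split into a lower pair, mutants 1 and 2 at 15.1 and 16.3 CPM, and a higher pair, mutants 3 and 4 at 24.1 and 22.6 CPM. All 4 lay below the wild types, with a log2 fold change of -0.58 ± 0.14 (edgeR adjusted p = 0.0117).

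Bcl11b (CTIP2) acts downstream of Fezf2 in layer V neurons and is also made in projection neurons of the striatum. Its P75 wild types were at 121, 133, 118 and 128 CPM and its mutants at 78.9, 89.8, 93.6 and 104 CPM. Bcl11b fell by 0.45 ± 0.084 (edgeR adjusted p = 0.00306). Etv1 (ER81), an ETS factor of layer V neurons, was at 92.9, 111, 89.1 and 88.4 CPM in wild types and at 69.5, 81.9, 68.1 and 78.6 CPM in mutants. Etv1 fell by 0.36 ± 0.091 (edgeR adjusted p = 0.0177).

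**Figure D2:**
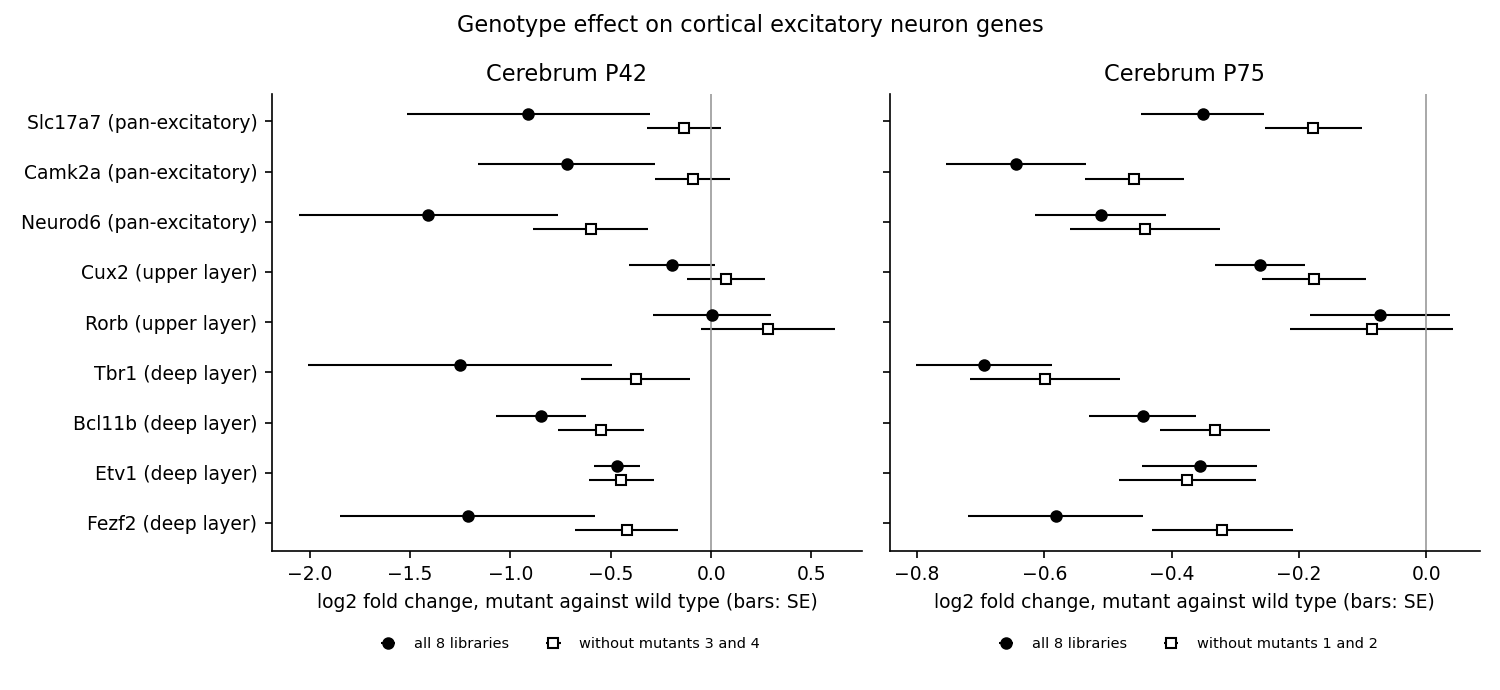
Log2 fold change of mutant against wild type (x axis, edgeR, bars are SE) for each of the 9 genes (y axis) in cerebrum at P42 (left) and P75 (right); filled circles use all 8 libraries, open squares leave out the 2 mutant libraries named. At P42 most values move towards 0 without mutants 3 and 4, while at P75 Tbr1 stays near -0.60 without mutants 1 and 2. The x axes of the panels differ.

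Glial markers differed in the same P75 libraries. Of 10 microglia markers, 7 were called higher (median log2 fold change 0.71), led by Aif1 at 1.42, Cd68 at 1.30 and Itgam at 1.30, and none was called lower. Their mean log2(CPM + 0.5) was 5.35, 5.48, 4.79 and 4.70 in the mutants and 4.26 to 4.47 in the wild types, and their summed level was 376 to 689 CPM against 304 to 336 CPM. Of 10 astrocyte markers, 6 were higher and 4 lower in sign (median 0.074). Of these, 2 were called higher, Gfap (2.47) and Sox9, and the other 8 were not called. The mean of the 10, Gfap included, was 8.05, 8.11, 7.68 and 7.64 in mutants and 7.53 to 7.59 in wild types. Of 10 mature oligodendrocyte markers, 8 were lower in sign (median -0.17) and 1, Ugt8a, was called lower. Their mean was 7.83 to 7.998 in mutants and 7.96 to 8.18 in wild types. No marker of these lists was at 0 in all cerebrum libraries. The part of glial RNA in the falls above was not tested.

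Without mutants 1 and 2, the libraries with the highest microglia and astrocyte marker levels, 3 of the 9 genes were called. These were Camk2a (-0.46, edgeR adjusted p = 0.00266), Tbr1 (-0.60, 0.00874) and Bcl11b (-0.33, 0.0441). That comparison was chosen after the marker levels were seen and sets 2 mutants against 4 wild types. The other called genes kept their sign without passing: Neurod6 at -0.44 (edgeR adjusted p = 0.0504), Etv1 at -0.38 (0.0661), Fezf2 at -0.32 (0.126), Cux2 at -0.18 (0.262) and Slc17a7 at -0.18 (0.225). Over all genes, 774 were called there, against 2502 with all libraries. Camk2a, Tbr1 and Bcl11b were called under every alternative run. Leaving out mutant 1 alone ended the calls of Slc17a7, Cux2 and Etv1 (5 of 9 called, 1356 genes in all). The calls of Slc17a7 (edgeR adjusted p = 0.0729), Cux2 (0.131) and Etv1 (0.0585) were also lost where libraries were scaled by their totals alone, which moved the median of all genes to 0.11. The calls of Slc17a7 were further lost without wild type 3 (edgeR adjusted p = 0.0508), wild type 4 (0.0944) or mutant 2 (0.0823). Those of Cux2 were lost without wild type 1 (0.0599), wild type 4 (0.0733) or mutant 2 (0.0724).

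Further cortical genes were read from longer lists. Of 20 further pan-excitatory genes, 7 were called lower and none higher at P75 (median -0.28), among them Nptx1, a neuronal pentraxin of synapses (-0.49, edgeR adjusted p = 0.00318), the synaptic vesicle protein gene Sv2b (-0.49, 0.00786) and the neuropeptide gene Cck (-0.43, 0.0176). Of 20 further upper layer genes, 6 were called lower and 1 higher (median -0.21). Lamp5 (-0.71, edgeR adjusted p = 0.000243), Calb1, a calcium-binding protein gene (-0.48, 0.00222), and Wfs1 (-0.36, 0.00706) had the smallest p. Of 23 further deep layer genes, 6 were called lower and none higher (median -0.26), with Ldb2 (-0.54, edgeR adjusted p = 0.00157), Parm1 (-0.35, 0.0129) and Pcp4 (-0.75, 0.0164) first by p. In these longer lists the medians of upper and deep layer genes were -0.21 and -0.26, while those of the member classes were -0.17 and -0.51.

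Neighbouring forebrain populations were read from the same libraries. Of 14 markers of striatal projection neurons, 7 were called lower at P75 and none higher (median -0.45), with Drd2 at -0.88 and Gpr6 at -1.22. Their mean log2(CPM + 0.5) was 5.38 to 5.94 in mutants and 6.11 to 6.24 in wild types; Bcl11b is shared with these cells, and their part in its fall was not tested. Of 12 hippocampal excitatory genes, 2 were called lower (median -0.077). Of 17 cortical interneuron genes, none was called lower and 1, Npy, was called higher (median -0.13). Of 25 markers of thalamus, hypothalamus and midbrain, 3 were called higher and none lower (median -0.024), and their mean was 3.48 to 3.73 in mutants and 3.34 to 3.74 in wild types.

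At P42, none of the 9 genes passed the test, while 8 of 9 had a negative log2 fold change and Rorb was at 0.0044. The members' median was -0.85, beside 0.013 for all genes. Over all 18205 genes, 0.0165% were called by edgeR, all of them higher (0% lower). The mutants were not alike. Mutants 3 and 4 held a fraction of the pan-excitatory RNA of the other 6 libraries, and of Tbr1 and Fezf2, while mutants 1 and 2 lay within or near the wild type range.

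Slc17a7 was at 1248, 908, 997 and 688 CPM in P42 wild types and at 925, 806, 109 and 174 CPM in mutants 1 to 4. Camk2a was at 3107, 2628, 2471 and 1909 CPM in wild types and at 2744, 2045, 603 and 743 CPM in mutants. For both genes mutants 1 and 2 fell within the wild type range and mutants 3 and 4 far below it. The log2 differences were -0.91 ± 0.60 for Slc17a7 and -0.72 ± 0.44 for Camk2a (edgeR adjusted p = 0.515 and 0.484). Neurod6 was at 71.8, 39.7, 62.8 and 38.6 CPM in wild types and at 27.0, 39.8, 2.89 and 9.93 CPM in mutants. Here mutant 1 was also below the wild types, and the log2 difference was -1.41 ± 0.65 (edgeR adjusted p = 0.402).

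Cux2 was at 148, 94.8, 94.2 and 85.6 CPM in P42 wild types and at 129, 95, 70.1 and 73.0 CPM in mutants. Rorb was at 48.8, 58.9, 29.9 and 53.1 CPM in wild types and at 77.4, 39.2, 42.6 and 34.8 CPM in mutants. In mutants 3 and 4, in which Slc17a7 was so low, Cux2 lay below the wild types by a small margin and Rorb lay within their range. The log2 differences were -0.19 ± 0.21 for Cux2 and 0.0044 ± 0.29 for Rorb (edgeR adjusted p = 0.686 and 0.995), and the sign of the Rorb value changed with the scaling and with the library left out.

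Tbr1 showed the widest spread among the mutants. It was at 153, 124, 78.4 and 121 CPM in P42 wild types and at 112, 74.5, 7.51 and 9.08 CPM in mutants, a log2 difference of -1.25 ± 0.76 (edgeR adjusted p = 0.478). Fezf2 was at 36.9, 20.2, 33.1 and 13.9 CPM in wild types and at 19.1, 17.2, 1.83 and 4.08 CPM in mutants, a difference of -1.21 ± 0.63 (edgeR adjusted p = 0.436). Both genes were lowest in mutants 3 and 4.

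Bcl11b and Etv1 differed from this pattern, since all 4 P42 mutants lay below all 4 wild types. Non-overlapping groups with mutants lower occurred for 2.88% of all genes. Bcl11b was at 128, 186, 118 and 170 CPM in wild types and at 114, 87.9, 56.8 and 70.7 CPM in mutants, a log2 difference of -0.85 ± 0.22 (edgeR unadjusted p = 0.00407, adjusted p = 0.338). Etv1 was at 99.0, 90.6, 105 and 100 CPM in wild types and at 63.9, 82.0, 66.5 and 73.4 CPM in mutants, a difference of -0.47 ± 0.11 (edgeR unadjusted p = 0.00241, adjusted p = 0.314). These 2 of 9 were the members with an unadjusted p under 0.05, beside 12.6% of all genes. DESeq2 called 1 member, Bcl11b (-0.85, adjusted p = 0.0279), in a run that called far more genes over all than edgeR did. In the authors' deposited table, which calls 1.11% of 18180 genes, Bcl11b (-0.88, adjusted p = 0.0327) and Etv1 (-0.47, adjusted p = 0.0210) were called. Their deposited table for P75, which calls 17.8% of 17572 genes, calls the same 8 members as here and leaves Rorb at an adjusted p of 0.740.

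Markers of other regions moved with the P42 libraries. Of 25 markers of thalamus, hypothalamus and midbrain, 25 had a positive log2 fold change (median 1.71), and 1, Synpo2, was called. Over the full list of 26, the mean log2(CPM + 0.5) was 2.66, 3.90, 4.71 and 4.59 in mutants 1 to 4 and 1.85, 1.30, 2.85 and 2.93 in wild types 1 to 4. The summed level was 867 to 1501 CPM in mutants and 221 to 527 CPM in wild types, and none of these genes was at 0 in all the libraries. The mean was highest in mutants 3 and 4, the libraries with the least Slc17a7, Tbr1 and Fezf2. Striatal markers were spread widely in both groups, at 4.43 to 6.96 in wild types and 4.84 to 6.31 in mutants, and mature oligodendrocyte markers had a median of 0.56 with none called. Of 10 microglia markers, 10 were lower in sign (median -0.30) and none was called. Their mean was 3.69 to 3.80 in mutants and 3.95 to 4.28 in wild types, without overlap and opposite in sign to P75. The part of these regions and cells in the P42 values was not tested.

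**Figure D3:**
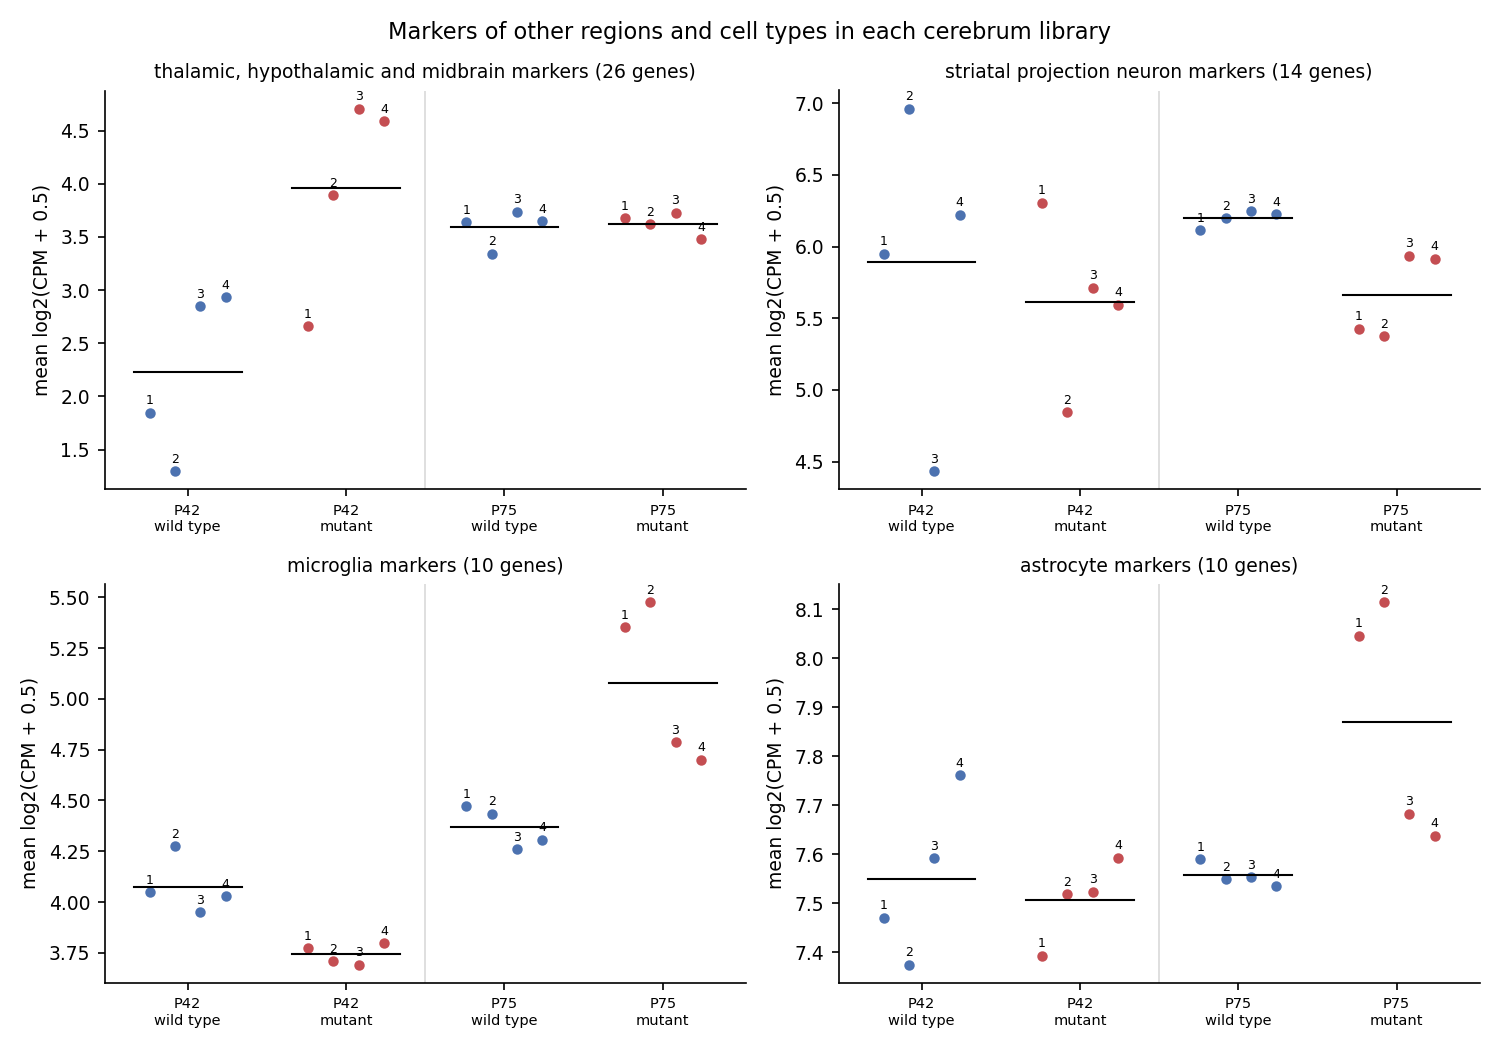
Mean log2(CPM + 0.5) over 4 marker lists (y axis) in each cerebrum library; blue is wild type, red is mutant, numbers are replicates, and the black line is the group mean. P42 mutants 3 and 4 have the highest thalamic, hypothalamic and midbrain level (4.71 and 4.59), and P75 mutants 1 and 2 have the highest microglia level (5.35 and 5.48).

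Leaving out 1 library moved the P42 values of several genes by over 1.5 times. Tbr1 ranged from -2.34 (without mutant 1) to -0.87 (without mutant 4), and Slc17a7 from -1.61 (without mutant 1) to -0.53 (without mutant 3). Camk2a ranged from -1.26 to -0.42, Neurod6 from -2.10 to -0.91 and Fezf2 from -1.87 to -0.75, with the value nearest 0 without mutant 3 in each. The range of Cux2, -0.37 to -0.025, was wide beside its size. Without both P42 mutants 3 and 4 the differences were smaller. Slc17a7 stood at -0.14, Camk2a at -0.092, Neurod6 at -0.60, Tbr1 at -0.38 and Fezf2 at -0.42 on the log2 scale, and Cux2 (0.074) and Rorb (0.29) were positive. Etv1 was at -0.45, beside -0.47 with all libraries, and Bcl11b at -0.55, beside -0.85. All had an edgeR adjusted p of 1, with 2 mutants against 4 wild types. Without mutant 1, Bcl11b was called (-1.15, edgeR adjusted p = 0.0432). Over all genes, leaving out 1 library gave 0 to 11 calls. With no filter on low counts, 1312 genes were called at P42, against 3 with the filter. Among them were 6 members: Slc17a7, Camk2a, Neurod6, Tbr1, Bcl11b and Fezf2.

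The further lists gave no calls among cortical genes at P42. Of 20 further pan-excitatory genes 19 were lower in sign (median -0.73), of 20 upper layer genes 17 (median -0.21) and of 23 deep layer genes 17 (median -0.24). By comparison, 48.6% of all genes were lower in sign. Ldb2, at -0.65 (edgeR adjusted p = 0.326), had the sign it had at P75, while Pcp4 was at 0.95 and thus opposite in sign to P75. Of 17 interneuron genes 9 were lower in sign (median -0.26).

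Upper and deep layer genes were then set against each other within each library, as the mean log2(CPM + 0.5) of Cux2 and Rorb minus that of Tbr1, Bcl11b, Etv1 and Fezf2. At P42 this difference was -0.11, -0.11, -0.50 and -0.12 in wild types and 0.66, 0.14, 1.75 and 1.22 in mutants. At P75 it was -0.26, -0.33, -0.29 and -0.38 in wild types and 0.13, 0.11, 0.0097 and -0.092 in mutants. At both ages every mutant was above every wild type, and the mutant mean was 0.94 ± 0.70 (SD, n = 4) at P42 and 0.041 ± 0.10 at P75, beside -0.21 ± 0.19 and -0.32 ± 0.051 in the wild types. No test was made on this score, since its genes were chosen with results of these data known. In the longer lists at P42, the upper layer mean was 4.85 to 5.46 in mutants and 5.53 to 5.68 in wild types. The deep layer mean was 4.62 to 4.93 and 4.97 to 5.06. Both were lower in P42 mutants, and a rise of upper over deep layer genes was not seen there. The gap of upper over deep was narrower in mutants 2, 3 and 4 than in every wild type. It was 4.85 against 4.62 in mutant 3 and 5.01 against 4.69 in mutant 4, beside 5.53 against 4.97 in wild type 3. In mutant 1 the gap lay within the wild type range. In mutants 2, 3 and 4 this direction was opposite to that of the members' score. At P75 the longer lists gave upper layer means of 5.29 to 5.49 in mutants and 5.52 to 5.60 in wild types. Their deep layer means were 4.80 to 4.97 and 5.11 to 5.23. At P75 the gap was wider in mutants 1, 3 and 4 than in every wild type, and in mutant 2 it lay within their range.

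**Figure D4:**
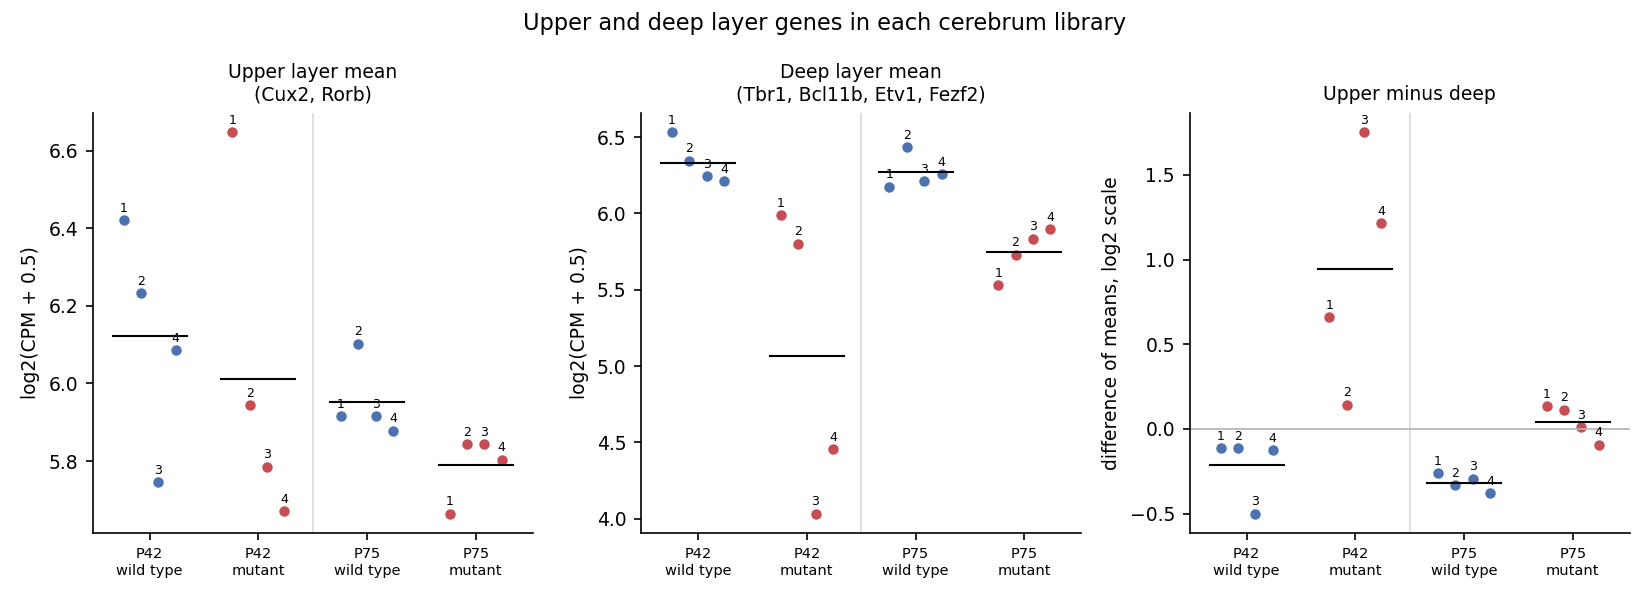
Mean log2(CPM + 0.5) of the 2 upper layer genes (left), of the 4 deep layer genes (middle) and their difference (right) in each cerebrum library; blue is wild type, red is mutant, numbers are replicates, and the black line is the group mean. The deep layer mean is lower in all mutants of each age, the upper layer ranges overlap at P42, and the difference is higher in the 4 mutants than in the 4 wild types at both ages.

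The mean of the 4 deep layer members carried most of the difference in the members' score. It was 6.33 ± 0.14 in P42 wild types and 5.07 ± 0.97 in mutants, and 6.27 ± 0.12 in P75 wild types and 5.75 ± 0.16 in mutants. The upper layer mean was 6.12 ± 0.29 and 6.01 ± 0.44 at P42, and 5.95 ± 0.10 and 5.79 ± 0.085 at P75. As medians of fold changes, upper minus deep was 0.94 at P42 and 0.35 at P75. These became 0.61 without P42 mutants 3 and 4, and 0.22 without P75 mutants 1 and 2.

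Ratios of single genes were also taken within each library. The ratio of Cux2 to Tbr1 counts was 0.97, 0.77, 1.20 and 0.71 in P42 wild types and 1.15, 1.27, 9.33 and 8.05 in mutants. At P75 it was 0.70 to 1.01 in wild types and 1.07 to 1.27 in mutants, so the groups overlapped at P42 and not at P75. The ratio of Rorb to Tbr1 was 0.39 to 0.49 in P75 wild types and 0.64 to 0.76 in mutants. Both ratios have Tbr1 below the line, and the ratio of the deep layer gene Bcl11b to Tbr1 was high in the same P42 libraries. It was 0.84 to 1.503 in P42 wild types and 1.02, 1.18, 7.56 and 7.79 in mutants 1 to 4, and 1.10 to 1.42 in P75 wild types and 1.41 to 1.60 in mutants. A high ratio to Tbr1 in P42 mutants 3 and 4 was thus seen for a deep layer gene too. Among pan-excitatory genes, the ratio of Slc17a7 to Camk2a overlapped between genotypes at P42 and was higher in the mutants at P75: 0.35 to 0.40 in P42 wild types against 0.18 to 0.39 in mutants, and 0.38 to 0.47 in P75 wild types against 0.51 to 0.58 in mutants.

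Whether the genotype effect differed between ages was tested as an interaction over the 16 cerebrum libraries. None of the 9 genes was called, beside 1.36% of 19273 genes. None had an unadjusted p under 0.05 (14.1% of all genes did), and the lowest was 0.113, for Bcl11b. The largest difference was 0.90 ± 0.66 for Neurod6 (P75 minus P42, edgeR adjusted p = 0.564), and that of Tbr1 was 0.56 ± 0.79 (0.794). The SE of these 2 values shows that changes of 1 log2 unit between the ages could not be resolved. Without P42 mutants 3 and 4 the sign turned for Slc17a7, Camk2a, Tbr1 and Fezf2. With no filter on low counts 3 members were called, among 1176 genes in all, against 263 genes with the filter. The P42 and P75 counts stand in separate tables, and age differences in level were not tested.

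Wild type cerebellum, which lacks the layers of the cerebral cortex, was used to check the 9 genes as markers of cerebrum. Tbr1 was at 0.747 ± 0.349 CPM (SD, n = 4), Bcl11b at 5.83 ± 1.0, Neurod6 at 5.52 ± 1.13 and Rorb at 16.4 ± 2.05. Camk2a was at 105 ± 37.4, Cux2 at 71.5 ± 9.92, Slc17a7 at 487 ± 77.7 and Etv1 at 377 ± 74.1. Fezf2 was near the floor, with 3 counts over the 4 wild type libraries against 2001 in wild type cerebrum. The ratio per total count was 492, with an exact 95% interval of 168 to 2387 that covers counting error only.

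The comparison of tissues uses the same wild type cerebrum libraries as the P42 comparison of genotypes. Against wild type cerebellum, 8 of the 9 genes were higher in wild type cerebrum and Etv1 was lower, beside 30.5% of 17964 genes called (16.4% higher and 14.1% lower). Tbr1 differed by 7.44 ± 0.33 on the log2 scale (edgeR adjusted p = 4.14e-07), Camk2a by 4.77 ± 0.26 (9.04e-07), Bcl11b by 4.68 ± 0.19 (4.14e-07) and Neurod6 by 3.47 ± 0.17 (6.18e-07). Rorb differed by 1.55 ± 0.21 (edgeR adjusted p = 0.000325), Slc17a7 by 1.08 ± 0.19 (0.00167) and Cux2 by 0.67 ± 0.18 (0.0188). Slc17a7 also serves cerebellar granule cells and their mossy fibre inputs. The Cux2 call was lost without cerebrum wild type 1 (0.41, edgeR adjusted p = 0.0726) and without cerebellum wild type 3 (0.57, 0.0503). Etv1 was lower in cerebrum, with a log2 difference of -1.79 ± 0.15 (edgeR adjusted p = 1.17e-05).

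**Figure D5:**
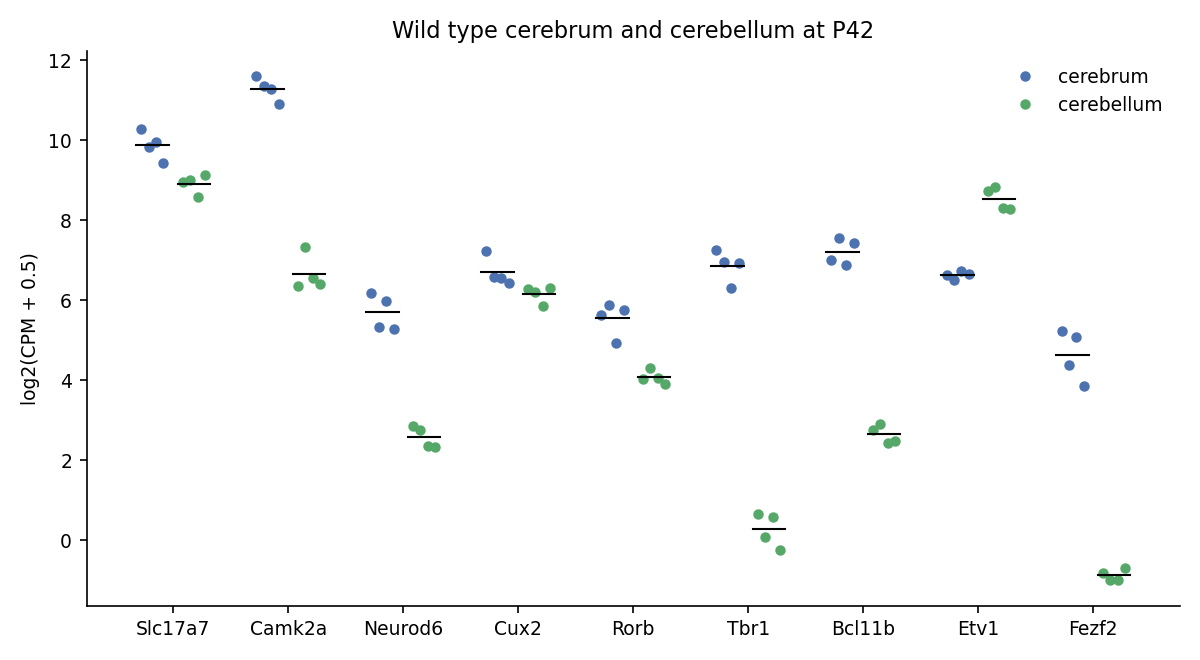
Log2(CPM + 0.5) of the 9 genes (x axis) in wild type P42 cerebrum (blue) and cerebellum (green); points are the 4 libraries of each and black lines the means. Tbr1 and Fezf2 are near the bottom of the scale in cerebellum, and Etv1 is the gene with its cerebellum points above its cerebrum points.

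Within the cerebellum, 8 of the 9 genes could be tested between genotypes at P42, since Fezf2 had 0 to 2 counts per library. None was called by edgeR, beside 0.0114% of 17616 genes, and none had an unadjusted p under 0.05, beside 4.65% of all genes (lowest 0.116, for Cux2). Cux2 was at -0.21 ± 0.12 on the log2 scale, Slc17a7 at -0.25 ± 0.27 and Etv1 at 0.19 ± 0.31. The signs of the 8 genes were split 4 to 4, with a median of -0.049. The labels do not say whether a cerebellum and a cerebrum came from the same animal.

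Genes with the most similar course were ranked over 15592 genes by Pearson's r with each class mean, over the 8 cerebrum libraries of each age, taking the smaller of the 2 values. These are descriptions with no p, and the 8 libraries share genotype, depth and composition. Among the closest to the pan-excitatory mean were Nptx1 (0.989 at P42, 0.987 at P75) and Olfm1 (0.985 and 0.998). Closest to the upper layer mean were Hlf (0.975 and 0.946), AI593442 (0.913 and 0.920) and Atp2a2 (0.974 and 0.907). Closest to the deep layer mean were Enc1 (0.994 and 0.987), Mpped1 (0.990 and 0.986) and Car10 (0.984 and 0.992).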

How the data were processed

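Reads were aligned with HISAT2 to mm10, per the submitters' processing notes, which also name DESeq2. Not given in the sources used here are the read counter, its strand setting and the annotation version. The authors deposited whole-number counts per gene for 54532 genes, with no scaling, and tables with the log2 fold change and the adjusted p-value of each comparison, per the file headers; the last were quoted beside the tests made here. The gene length of the deposited tables gave levels per kilobase.

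From the counts, genes were kept by filterByExpr, libraries scaled by TMM, and groups compared with edgeR 4.0.16 in R 4.3.3 (quasi-likelihood F test, two-sided, Benjamini-Hochberg over all genes tested, threshold 0.05). Sex was a covariate at P42, in the interaction and between tissues. Levels are CPM on TMM-scaled totals. Log2 levels used a prior count of 0.5. SE is the log2 fold change divided by the root of F. DESeq2 1.42.0, other scalings and filters, a replicate block and left-out libraries were alternatives. The test was also run on simulated counts, drawn independently for each gene and library, and its outcome is not given here. Such counts hold no shift shared by several libraries. No pair of libraries in a group was identical. Members and gene lists were chosen with earlier results of these data known. The 9 genes are always named, and from each other list up to 3 with the smallest P75 p; Synpo2 and the P42 values of Ldb2 and Pcp4 were named after their values were seen. A few genes that this rule or the ranking by likeness would name are not reported here.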

Additional observations from a re-analysis of the deposited data

Results flagged for a closer look

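In 3 of 54 gene and group combinations (5.56%), 1 library stood apart from the other 3 by Dixon's criterion, which chance gives in about 1 of 20 groups. Cux2 was at 148 CPM in P42 wild type cerebrum 1, against 85.6 to 94.8 CPM in the other wild types. Slc17a7 was at 1093 CPM in P75 wild type cerebrum 4, against 963 to 980.0 CPM. Camk2a was at 160 CPM in wild type cerebellum 2, against 81.0 to 92.7 CPM. Without P75 wild type 4 Slc17a7 was no longer called (edgeR adjusted p = 0.0944).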

How the results depend on the processing

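Camk2a, Tbr1 and Bcl11b at P75 kept direction and call under every alternative run, while the count of called members depended on settings. For each result below the cause was not tested. At P75, 8 members were called, but 5 with library size only, 4 at an adjusted p under 0.01 and 3 without mutants 1 and 2; leaving out 1 library gave 5 to 8. Genes called were 2502, but 1086 at 0.01 and 774 without mutants 1 and 2, and 1356 to 2783 without 1 library. Upper minus deep was 0.22 without mutants 1 and 2. Rorb at P75 was 0.033 with library size only and -0.14 to 0.040 without 1 library. At P42, 0 members were called lower, but 1 with DESeq2 and 6 with no filter; leaving out 1 library gave 0 to 1. Genes called were 3, but 206 with DESeq2, 1312 with no filter, 8 with the replicate block, and 0 with library size only, with 1 CPM in 4 libraries, at 0.01, with no sex term, in males only (2 against 2) and without mutants 3 and 4; leaving out 1 library gave 0 to 11. Cux2 at P42 was 0.074 without mutants 3 and 4. Rorb at P42 was -0.00092 with DESeq2, -0.0031 with relative log expression scaling, -0.0062 with the replicate block and -0.31 to 0.17 without 1 library.

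In cerebellum, 2 genes were called, but 25 with DESeq2, 153 with no filter and 1 at 0.01, with the block or with no sex term, and 1 to 2 without 1 library. Tbr1 there was -0.013 with no sex term and Etv1 -0.26 with the block. Without 1 library the ranges were -0.37 to 0.060 for Camk2a, -0.12 to 0.31 for Rorb, -0.24 to 0.52 for Tbr1, -0.64 to 0.084 for Bcl11b and -0.10 to 0.36 for Etv1. The interaction called 263 genes, but 602 with DESeq2, 1176 with no filter, 100 at 0.01, 135 in males only, 132 without mutants 3 and 4, and 124 to 1169 without 1 library; members called higher were 3 with no filter and 0 to 1 without 1 library. Without mutants 3 and 4 it was -0.22 for Slc17a7, -0.55 for Camk2a, -0.32 for Tbr1 and -0.16 for Fezf2, and in males only 0.032 for Cux2. Without 1 library it ranged from -0.22 to 0.61 for Camk2a, -0.23 to 0.10 for Cux2 and -0.27 to 0.23 for Rorb. Between tissues 5472 genes were called, but 3311 at 0.01 and 2658 with the block.

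The replicate numbers in the labels were checked for pairing. Correlations of same-numbered libraries over 0.1 were found in 2 of 4 pairs in P42 cerebrum, 1 in P75 cerebrum, 0 in cerebellum and 1 between tissues. They ranged from 0.0165 to 0.238 in P42 cerebrum and from 0.0166 to 0.119 in P75 cerebrum. In cerebellum they ranged from -0.31 to 0.0881 and between tissues from -0.157 to 0.151. Such correlations cannot settle whether the numbers pair the libraries. A library correlated best with its own number in 2, 2, 1 and 2 of 4 cases, as a hint from the data only. Libraries of different numbers reached 0.243 in P42 cerebrum, 0.356 in cerebellum and 0.18 between tissues, above the same-numbered values there. In P75 cerebrum they did not. Same-numbered libraries of P42 cerebrum were also of the same sex. With the replicate block 8 members were called at P75, and Cux2 was no longer called between tissues (0.68, edgeR adjusted p = 0.0773). With 4 libraries a group, differences near or below the SE given beside each value could not be resolved. A difference above its SE was not thereby resolved, and the called members lay several SE from no change. Some differences well above their SE were not called either. At P42 these included Bcl11b at -0.85 ± 0.22 and Etv1 at -0.47 ± 0.11.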
